A study of Drosophila melanogaster with 7 samples.

Results

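The 10 genes described here encode factors that repress maternal mRNAs in the early *Drosophila* embryo or that lead to their destruction. They were taken by symbol, with earlier results of these data known. The RNA-binding regulators are *smg*, *brat* and *pum*, and the repression complex genes are *cup*, *me31B* and *tral*. The deadenylase subunit genes are *twin* and *Not1*, and the kinase genes are *png* and *gnu*. All 10 were found among the 17699 genes of the count table, and all 10 were among the 8008 genes that passed the filter on low counts. Their transcripts were measured by RNA sequencing in embryos staged by hand at stage 5, the cellularizing blastoderm, with 4 control libraries and 3 libraries from embryos with a partial knockdown of heterochromatin protein 1 (HP1-KD). Control embryos were of Bloomington stock #36303. HP1-KD embryos descended from Gal4 driver males (Bloomington #7063) and females of the TRiP RNAi line #33400: the daughters, which carried driver and hairpin and in which HP1 was depleted in the germ line, were mated to their siblings, and the embryos they laid were collected. The knockdown therefore acted in the mother, and a transcript that was loaded into the egg could differ between the groups from oogenesis onwards. The paper reports that only a small part of the embryos with the partial knockdown developed as far as zygotic genome activation. HP1-KD embryos at stage 5 were thus a selected part of those laid. Embryos were put into Trizol one by one, and the sources used here do not give how many entered a library or whether libraries of a group came from separate collections, so the p-values measure only the spread between these libraries.

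An egg is laid with a stock of maternal mRNA, of which a large part is held silent or destroyed while the zygotic genome is switched on. The kinase made of PNG, GNU and PLU is activated with the egg and allows *smg* mRNA to be translated. SMG, BRAT and PUM bind sequence elements of their target mRNAs, block their translation and bring in the CCR4-NOT complex, which shortens the poly(A) tail. CUP, ME31B and TRAL form a complex that keeps translation off, and these 3 proteins are themselves removed during the maternal-to-zygotic transition by way of the CTLH ubiquitin ligase. The data below are transcript levels and do not measure any of these proteins.

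The libraries were as follows. Counts summed to 10927292.5 to 14374654.5 per control library and to 8678092 to 16983585.5 per HP1-KD library. Ribosomal RNA genes held 47.2%, 15.3%, 18.1% and 17.2% of all counts in the controls (replicates 1 to 4, the order used throughout) and 80.7%, 37.3% and 79.1% in HP1-KD (replicates 1 to 3), which left 7324415.5 to 11775952 counts outside these genes in controls and 3272009.5 to 5443432 in HP1-KD. The silenced gene, *Su(var)2-5*, was at 38.5% of its control level in HP1-KD (log2 fold change −1.38, SE 0.15, adjusted p = 0.00231, edgeR's quasi-likelihood test). The 5 cellularization genes *nullo*, *bnk*, *Sry-alpha*, *slam* and *halo* summed to 38075 to 43037 normalized counts per control library and 21458 to 34186 per HP1-KD library, and none of the 5 passed the test. Most of this sum was *slam* (23237 to 25407 in controls, 12551 to 20157 in HP1-KD). *nullo* and *bnk* were lowest in control replicate 3, at 122 and 652 against 395 to 696 and 1466 to 2426 in the other controls. Only *nullo* had a log2 fold change above 0 (0.32). The 5 gap and pair-rule genes *Kr*, *kni*, *eve*, *ftz* and *h* (listed as *hry*) summed to 3792 to 5527 and to 2013 to 3084, with control replicate 3 highest, and 1 of the 5, *h*, fell (adjusted p = 0.0304, edgeR). The gap gene *hb*, kept among the target mRNAs below, is not in this sum. It had 5387, 3653, 2576 and 4569 normalized counts in controls and 4091, 4446 and 3714 in HP1-KD. Control replicate 3 was thus its lowest library, and its log2 fold change was 0.01 (adjusted p = 0.972, edgeR). Of the 5 later embryo genes, *repo*, *Mhc*, *Act57B* and *Mlc2* had at most 10 counts in any library, whereas *elav*, a neuronal gene, reached 1062 normalized counts in control replicate 3 against 90.1 to 288 in the other libraries. The 8 egg shell genes summed to 2.28 to 7.92 normalized counts in controls and to 2.07 to 70.04 in HP1-KD, with HP1-KD replicate 1 highest. The 5 germ plasm genes *vas*, *osk*, *nanos*, *gcl* and *pgc* summed to 2032 in control replicate 3 and to 5249 to 6683 in the other controls. In HP1-KD they summed to 5111 to 6824, and none of the 5 passed the test. In bulk embryos, a lower number of cells that hold a transcript and less of it per cell cannot be told apart.

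The transcripts of the 10 genes differed widely in level. Per length, as counts per 1000 nt of exon and 1000000 counts on the TMM scale (RPKM), *me31B* was the most abundant of the 10 in controls, at 540 ± 128 RPKM (SD, n = 4). It was followed by *smg* at 149 ± 74.9 RPKM and *tral* at 134 ± 34.3 RPKM, and these 3 stood at percentiles 99.2, 97.3 and 97.1 of the 7427 protein-coding genes tested, whose median was 9.29 RPKM. *Not1* had 65.7 ± 12.0 RPKM and *cup* 40.2 ± 16.7 RPKM. Lower levels were found for *brat* (23.0 ± 2.41 RPKM), *twin* (18.8 ± 5.44 RPKM), *pum* (16.2 ± 7.73 RPKM) and *gnu* (16.1 ± 10.8 RPKM). *png* was far below the rest with 1.68 ± 0.36 RPKM, at percentile 16.5.

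In this order, the control ranges of *me31B* and *smg*, of *tral* and *Not1*, and of *gnu* and *png* did not overlap. *Not1* lay above *cup*, *cup* above *brat* and *brat* above *twin* in 7 of 7 libraries, though the ranges of each pair overlapped between libraries. *smg* exceeded *tral* in 4 of 7 libraries, *twin* exceeded *pum* in 2 of 7, and *pum* exceeded *gnu* in 4 of 7, so that these neighbours did not differ beyond their spread. In HP1-KD, *me31B* again led with 532 ± 33.3 RPKM (SD, n = 3), and *tral* (220.1 ± 36.2 RPKM) and *smg* (218 ± 17.6 RPKM) lay next to each other. *png* was again lowest, at 2.88 ± 0.75 RPKM. The range from the most to the least abundant of these mRNAs was thus much wider than any difference between the groups described below.

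**Figure D1:**
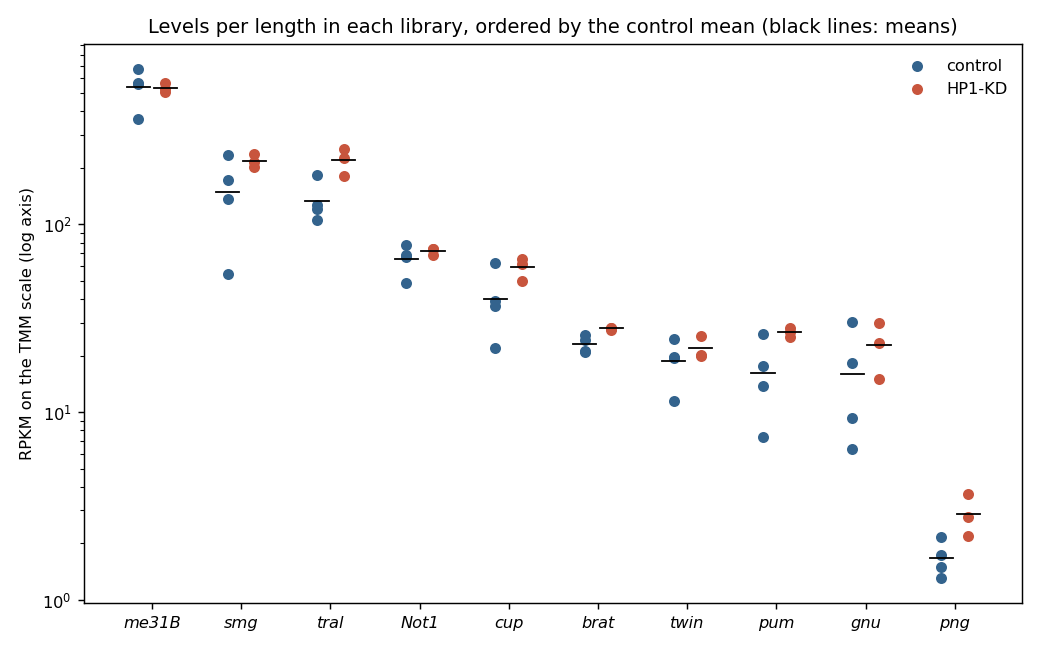
Level per length of each of the 10 transcripts in each library, in RPKM on the TMM scale (logarithmic axis), with genes ordered by their control mean, points for the 4 control (blue) and 3 HP1-KD (red) libraries and black lines for group means. *me31B* has the highest and *png* the lowest value in each of the 7 libraries, and *brat*, *twin*, *pum* and *gnu* lie among each other.

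None of the 10 genes passed the test between HP1-KD and control libraries (edgeR's quasi-likelihood F-test, Benjamini-Hochberg adjustment over 8008 genes, threshold 0.05). Of all genes tested, 8.59% passed, 3.7% higher and 4.9% lower in HP1-KD. At an unadjusted p under 0.05, 3 of the 10 were higher in HP1-KD (*brat*, *tral* and *png*) and 0 were lower, where 28.8% of all genes had such a p and 13.5% were higher with it. On the TMM scale the log2 fold change was above 0 for 9 of the 10 genes (for 0 of 10 by total count alone, where the median gene was at −1.15), against 47.8% of all genes tested, and its median was 0.52 over the 10 and −0.03 over all genes. In 2 of the 10, *brat* and *png*, every HP1-KD library lay above every control library, as was the case for 15.3% of all genes. None lay wholly below, as 15.1% of all genes did (30.4% did not overlap in either direction). With DESeq2's Wald test, which called 18.6% of all genes, 1 of the 10 passed (*tral*, adjusted p = 0.017). With limma-voom, which called 6.99%, none did, nor with the replicate number as a block, where edgeR called 1.24%.

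**Figure D2:**
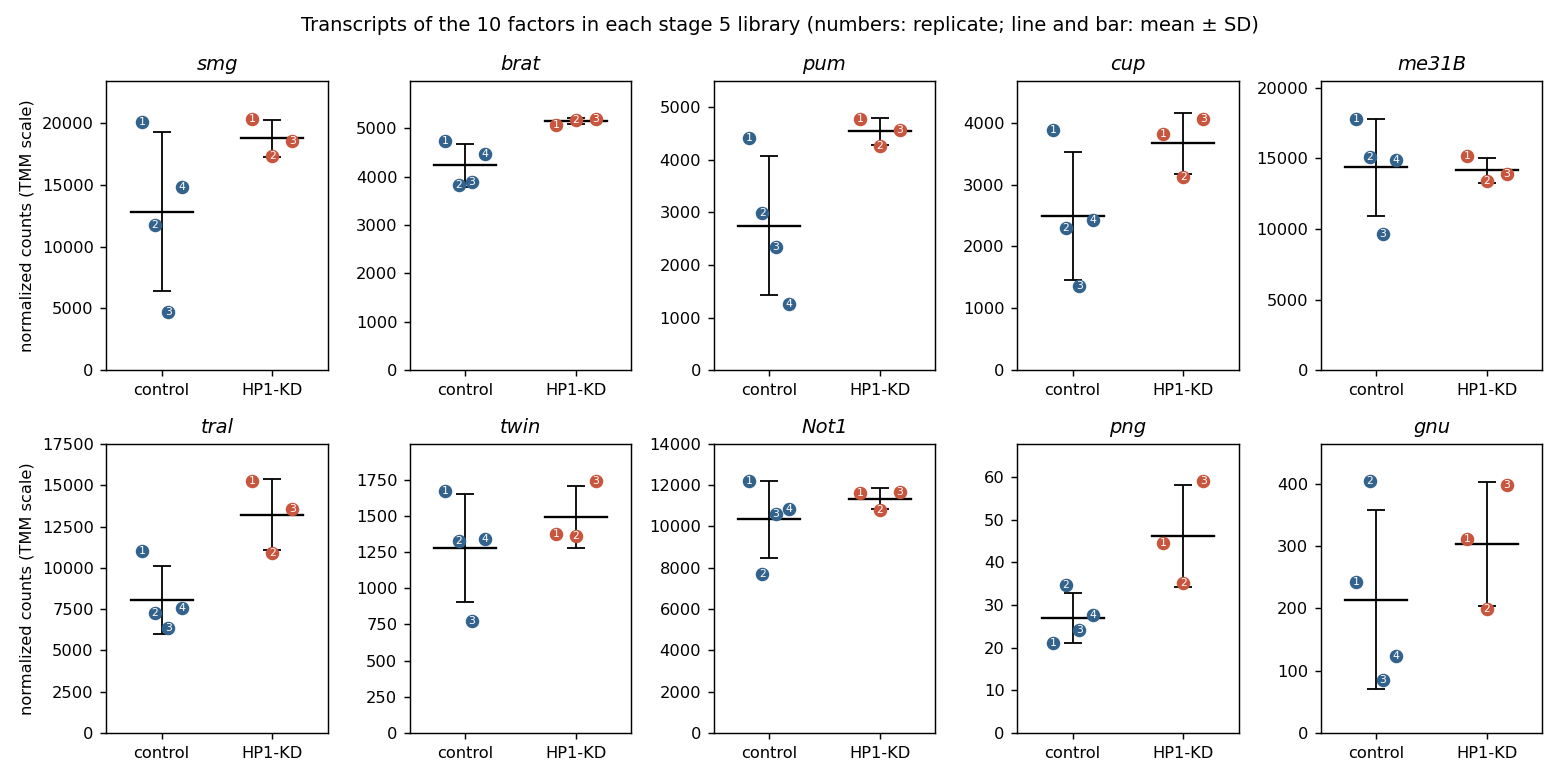
Normalized counts (TMM scale) of the 10 transcripts in each library, with the replicate number inside each point, a line for the group mean and a bar for its SD (4 control libraries in blue, 3 HP1-KD libraries in red; each axis starts at 0). The groups are separate for *brat* and *png* only, and control replicate 3 is the lowest library for *smg*, *cup*, *me31B*, *tral*, *twin* and *gnu*.

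Among the regulators, *smg* (FBgn0016070, protein-coding, chromosome 3L of dm6 from 8990317 to 8997989, minus strand) encodes Smaug, which recruits CCR4-NOT to a large set of maternal mRNAs. Its normalized counts came to 20081, 11722, 4683 and 14838 in the controls and to 20341, 17326 and 18564 in HP1-KD. The controls spread over 4.29-fold with replicate 3 lowest, the HP1-KD libraries over 1.17-fold, and control replicate 1 lay within the HP1-KD range. HP1-KD against control, the log2 fold change was 0.55 (95% interval −0.39 to 1.48, SE 0.41, adjusted p = 0.391, edgeR). Without control replicate 3 it was 0.26, in a fit that called 15.8% of all genes and 0 of the 10, and without control replicate 1 it was 0.85.

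*brat* (FBgn0010300, protein-coding, 2L from 19133816 to 19179758, plus strand) encodes Brain tumor, an NHL-domain protein that binds RNA. Its normalized counts were 4748, 3839, 3900.1 and 4478 in controls and 5078, 5167 and 5199 in HP1-KD. All 3 HP1-KD libraries lay above all controls, and they differed from each other by no more than 1.02-fold. The difference was small, at a log2 fold change of 0.28 (95% interval 0.03 to 0.53, SE 0.11, adjusted p = 0.135, edgeR).

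*pum* (FBgn0003165, protein-coding, 3R from 9066343 to 9237682, minus strand) encodes Pumilio, the founding member of the PUF family of RNA-binding proteins, which acts with Nanos and BRAT on *hb* mRNA. Normalized counts of *pum* were 4408, 2981, 2345 and 1259 in controls and 4779, 4267 and 4572 in HP1-KD. Here control replicate 4, not replicate 3, was lowest, and control replicate 1 alone reached the HP1-KD range. For *pum*, the log2 fold change was 0.72 (95% interval −0.09 to 1.53, SE 0.35, adjusted p = 0.212, edgeR), and it was 0.48 without control replicate 4. The spread of *smg* and *pum* in controls was large even among all genes: the SD of their log2 levels stood at percentiles 92.2 and 86.3 of the genes tested, that of *brat* at percentile 21.1.

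In the repression complex, *me31B* (FBgn0004419, protein-coding, 2L from 10239341 to 10242172, plus strand) encodes a DEAD-box RNA helicase. Its normalized counts were 17797, 15072, 9656 and 14871 in controls and 15131, 13408 and 13909 in HP1-KD. All 3 HP1-KD libraries lay inside the control range. This gave a log2 fold change of −0.02 (95% interval −0.49 to 0.45, SE 0.20, adjusted p = 0.954, edgeR). Differences inside that interval are compatible with these libraries, and the interval is not a limit of detection. Its sign was positive under 4 of 19 alternative settings (0.02 to 0.10).

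*tral* (FBgn0041775, protein-coding, 3L from 12515059 to 12520954, plus strand) encodes Trailer hitch, an LSm-domain protein that binds ME31B. Normalized counts of *tral* were 11037, 7256, 6334 and 7588 in controls and 15229.6, 10916 and 13537 in HP1-KD. The groups met only at their edges, with control replicate 1 slightly above HP1-KD replicate 2. At a log2 fold change of 0.72 (95% interval 0.23 to 1.20, SE 0.21), *tral* had the lowest adjusted p of the 10 genes (0.0728, edgeR). It was 0.91 with an adjusted p of 0.0151 when control replicate 1 was left out, a setting in which edgeR called 12.5% of all genes.

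*cup* (FBgn0000392, protein-coding, 2L from 6663664 to 6674780, plus strand) encodes an eIF4E-binding protein through which SMG, among others, blocks translation. The counts of *cup* cannot be assigned to this gene alone, since all 4306 nt of its annotated exons also lie in exons of *CG34310* on the same strand, and the counts listed for *CG34310* were 100.4% to 102.7% of those for *cup* in the 7 libraries. Normalized counts were 3879, 2295, 1363 and 2432 in controls and 3821, 3117 and 4063 in HP1-KD. As for *pum*, control replicate 1 was the only control library inside the HP1-KD range. Between the groups, *cup* had a log2 fold change of 0.56 (95% interval −0.15 to 1.26, SE 0.30, adjusted p = 0.26, edgeR). It was 0.35 without control replicate 3 and 0.85 without control replicate 1.

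**Figure D3:**
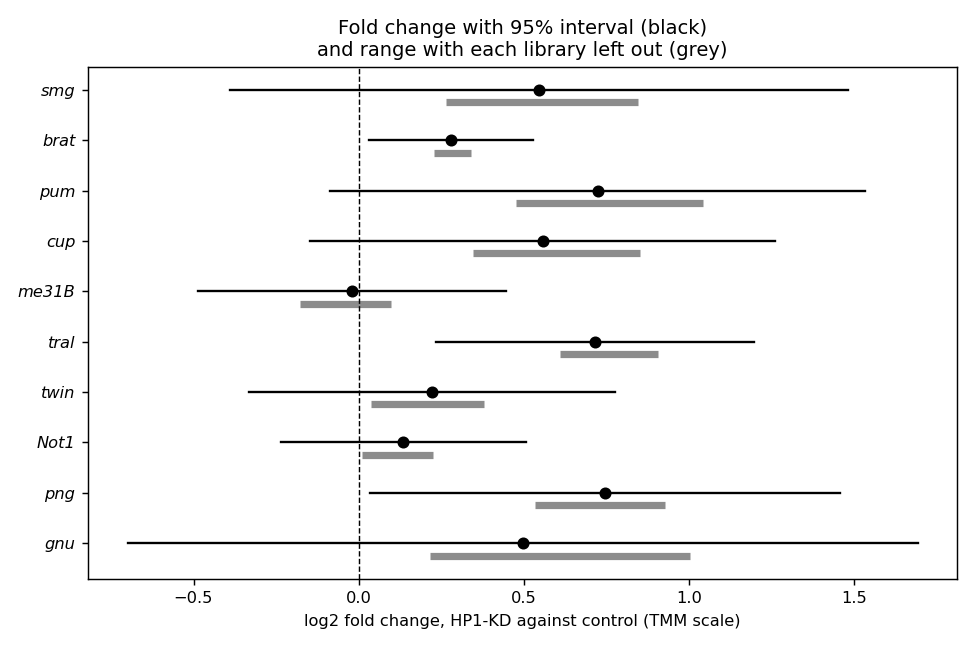
Log2 fold change of each of the 10 transcripts, HP1-KD against control on the TMM scale (points), with its 95% interval from edgeR's fit (black lines) and the range of values when each of the 7 libraries was left out in turn (grey bars). The intervals of *brat*, *tral* and *png* lie above 0 before adjustment, and the bar of *me31B* spans 0 (−0.18 to 0.10). By total count alone all 10 values would lie below 0.

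Of the deadenylase genes, *Not1* (FBgn0085436, protein-coding, 2R from 9566146 to 9579007, minus strand) encodes the scaffold of the CCR4-NOT complex. It had 12181, 7708, 10605 and 10860.0 normalized counts in controls and 11611, 10776 and 11669 in HP1-KD. The HP1-KD libraries lay inside the control range, and, as for *brat*, *pum* and *png*, control replicate 3 was not the lowest library. *Not1* had a log2 fold change of 0.13 (95% interval −0.24 to 0.51, SE 0.16, adjusted p = 0.585, edgeR). It was 0.01 without control replicate 2 and 0.23 without control replicate 1.

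*twin* (FBgn0011725, protein-coding, 3R from 24196893 to 24221965, minus strand) encodes the CCR4 deadenylase, a catalytic subunit of the same complex. Normalized counts of *twin* were 1669.8, 1327, 777 and 1338 in controls and 1375, 1361 and 1738 in HP1-KD. Control replicate 3 was again far below the other libraries, and the remaining controls overlapped with HP1-KD. For *twin* the log2 fold change was 0.22 (95% interval −0.33 to 0.78, SE 0.24, adjusted p = 0.547, edgeR), and it was 0.04 without control replicate 3, 0.09 without HP1-KD replicate 3 and 0.38 without control replicate 1. Exons of *cav* cover 454 nt (9.61%) of the exons of *twin* on the opposite strand, and whether the counting used strand was not given in the sources used here. Shorter opposite-strand overlaps were annotated for *brat* (at most 135 nt), *Not1* (103 nt) and *cup* (99 nt), and none for the other 6 genes.

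The kinase genes were the least abundant by counts. *png* (FBgn0000826, protein-coding, X from 1356488 to 1357601, minus strand) encodes the catalytic subunit of the PNG kinase, and its counts before normalization were only 20 to 45.5 per library. It had 21.1, 34.6, 24.1 and 27.7 normalized counts in controls and 44.5, 35.1 and 58.9 in HP1-KD. The groups did not overlap, but control replicate 2 and HP1-KD replicate 2 were separated by less than 1 normalized count. *png* had the highest log2 fold change of the 10 in this fit, 0.75 (95% interval 0.03 to 1.46, SE 0.31, adjusted p = 0.159, edgeR).

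*gnu* (FBgn0001120, protein-coding, 3L from 14802380 to 14803360, minus strand) encodes Giant nuclei, an activating subunit of that kinase. Normalized counts of *gnu* were 243, 404, 84.2 and 124 in controls and 311, 199 and 398 in HP1-KD. Both the highest and the lowest value belonged to controls, so the HP1-KD libraries lay within a 4.80-fold control range. For *gnu* the log2 fold change was 0.50 (95% interval −0.70 to 1.69, SE 0.52, adjusted p = 0.533, edgeR), with the widest interval of the 10. With 1 library left out it ranged from 0.22 without control replicate 3 to 1.00 without control replicate 2, and it was 0.30 without control replicate 4 and 0.24 without HP1-KD replicate 3.

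The 10 genes together took 1.16%, 0.859%, 0.626% and 0.905% of the counts of protein-coding genes in the controls. In HP1-KD they took 1.22%, 1.06% and 1.22%. Control replicate 3 was lowest (95% Wilson interval 0.622% to 0.631%), and control replicate 1 lay above HP1-KD replicate 2 (1.05% to 1.07%), so the groups overlapped. These intervals cover counting error only and were far narrower than the differences between libraries of 1 group. Control replicate 1 had the highest share of ribosomal RNA and of the 10 genes among controls, and HP1-KD replicate 2 had the lowest share of both among HP1-KD libraries. With ribosomal RNA genes removed before scaling and fitting, the log2 fold change remained above 0 for 9 of the 10 genes, and 0 of the 10 passed. That fit drops the ribosomal RNA rows and does not remove other differences between libraries that go with their share. Whether such differences or the knockdown account for the values was not tested. Control replicate 3 was lowest for the summed share of the 10 genes, for the summed target mRNAs below, for the germ plasm sum and for the gap gene *hb*. It was highest for *elav* and for the sum of gap and pair-rule genes, which leaves out *hb*. Within that sum, control replicate 3 stood out in the pair-rule genes *h*, *ftz* and *eve*. These had 1482, 856 and 260 normalized counts there, against at most 956, 446 and 188 in the other controls. The gap genes *Kr* and *kni* (2143 and 786) were near the other controls (1854 to 2244 and 740 to 784). The part of this library's composition in the results was not tested. With control replicates 1 and 3 both left out, a choice made after the values were seen, 3 of the 10 genes passed (*tral*, *cup* and *pum*, with log2 fold changes of 0.83, 0.63 and 1.09 and adjusted p-values of 0.0139, 0.0162 and 0.0468 by edgeR), where 20.6% of all genes did.

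**Figure D4:**
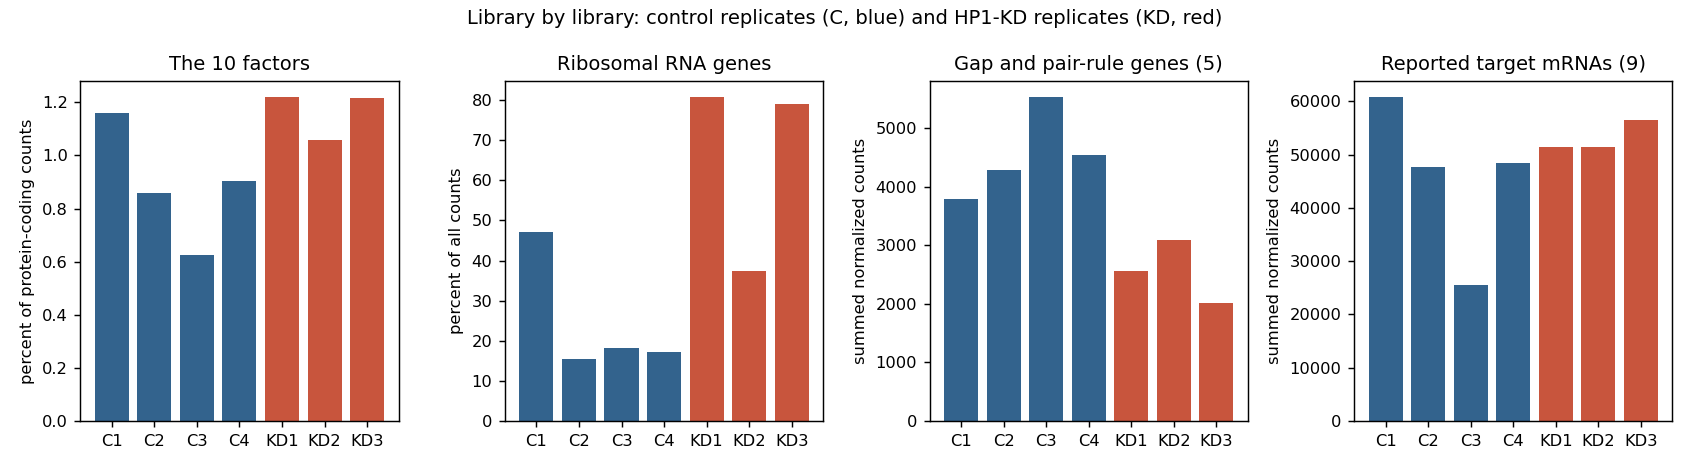
From left to right, for each library (C1 to C4 control, KD1 to KD3 HP1-KD): percent of protein-coding counts on the 10 genes, percent of all counts on ribosomal RNA genes, summed normalized counts of 5 gap and pair-rule genes and of 9 reported target mRNAs, all as bars from 0. C3 has the lowest share on the 10 genes (0.626%) and the lowest target sum but the highest gap and pair-rule sum, and all 3 HP1-KD libraries lie below all controls in the gap and pair-rule sum. The gap gene *hb* is part of the target sum and not of the gap and pair-rule sum. Most of the target sum is *CycB* and *CycA*.

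The SD of the log2 level was larger in controls than in HP1-KD for 9 of the 10 genes, *png* being the exception. The same held for 69.0% of all genes tested, whose median SD was 0.32 in controls and 0.19 in HP1-KD, so that the direction itself was common. The size varied: *smg* had an SD of 0.91 in controls and 0.12 in HP1-KD, *pum* 0.76 and 0.08, and *brat* 0.15 and 0.02. With 3 and 4 libraries, these SDs are themselves imprecise, and they were not tested.

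Ratios between 2 transcripts of the same library do not depend on how libraries are scaled, and 6 such ratios of counts per kilobase were compared. The ratio of *tral* to *me31B*, whose proteins bind each other, was 0.274, 0.213, 0.290 and 0.226 in controls and 0.445, 0.360 and 0.431 in HP1-KD. Every HP1-KD library lay above every control, and the mean log2 ratio was 0.72 higher (1.65-fold). A two-sided exact permutation test, over all 35 ways to assign the libraries, gave p = 0.0571, the smallest this test can give for 3 libraries against 4, or 0.171 adjusted over the 6 ratios.

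The ratio of *cup* to *me31B* was 0.0934, 0.0652, 0.0605 and 0.0701 in controls and 0.108, 0.0996 and 0.125 in HP1-KD. These groups did not overlap either, with a mean log2 ratio 0.63 higher in HP1-KD (1.55-fold, exact permutation p = 0.0571, adjusted p = 0.171), under the limit on *cup* counts given above. Both ratios have *me31B* as denominator, whose log2 fold change was −0.02. They thus largely repeat the fold changes of *tral* (0.72) and *cup* (0.56) and are not independent of each other. How often the ratio of any 2 genes separates the groups was not determined. Of single genes, 30.4% did not overlap between the groups.

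The other 4 ratios overlapped between groups. *smg* to *Not1* was 3.02, 2.78, 0.808 and 2.50 in controls and 3.21, 2.94 and 2.91 in HP1-KD, a difference of 0.57 in mean log2 ratio that was 0.13 without control replicate 3 (exact permutation p = 0.171, adjusted p = 0.257). *pum* to *brat* differed by 0.58 with the same p-values, and was lowest, at 0.305, in control replicate 4, without which the difference was 0.22. *twin* to *Not1* differed by 0.11 and *gnu* to *png* by −0.07 (exact permutation p = 0.857 and 0.8, adjusted p = 0.857 for both). Both changed sign with 1 library left out, *twin* to *Not1* to −0.13 without control replicate 3 and *gnu* to *png* to 0.19 without control replicate 1, 0.20 without control replicate 2 and 0.03 without HP1-KD replicate 2. The *gnu* to *png* ratio was 13.9, 14.1, 4.21 and 5.38 in controls and 8.45, 6.85 and 8.15 in HP1-KD.

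**Figure D5:**
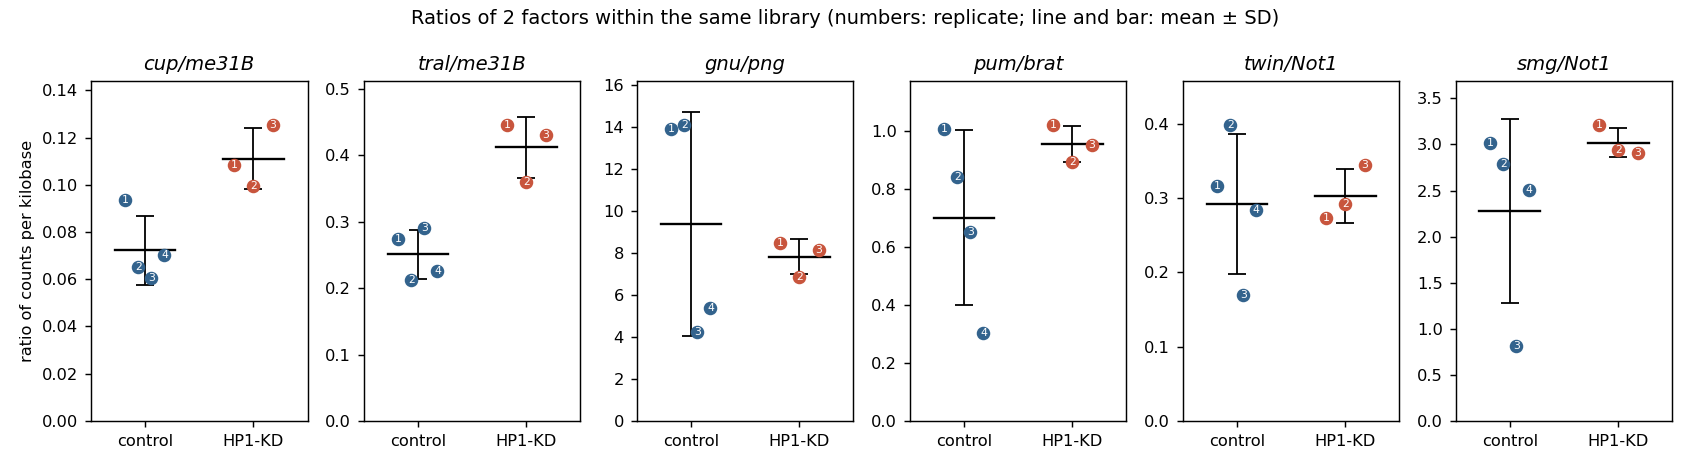
Ratio of counts per kilobase of exon of 2 transcripts within the same library for 6 pairs, with the replicate number inside each point, a line for the mean and a bar for the SD (4 control libraries in blue, 3 HP1-KD libraries in red; each axis starts at 0). The groups are separate for *cup* to *me31B* and *tral* to *me31B* and overlap for the other 4 pairs.

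Of 40 further genes of the pathway in 5 lists, each counted once, 2 were higher and 1 was lower in HP1-KD by edgeR's test, beside 3.7% and 4.9% of all genes, and 23 had a log2 fold change above 0, beside 47.8% of all genes. With ribosomal RNA genes left out of the fit, 5 of the 40 passed, beside 9.1% of all genes. By total count alone, which called 13.7% of all genes, both of the higher ones were below 0 and none of the 3 passed. In that fit *Not11*, another CCR4-NOT subunit gene, named here after its value was seen, passed as lower (log2 fold change −2.58, adjusted p = 0.0283, edgeR). *Not11* had only 4 to 79 counts per library, with control replicate 3 highest. On the TMM scale its groups overlapped and it did not pass (log2 fold change −1.29, adjusted p = 0.278, edgeR). The median log2 fold change of the 40 genes was 0.14, against 0.52 for the 10 genes and −0.03 for all genes. The 7 other CCR4-NOT subunit genes tested had a median of −0.16, and 1 rose. This was *Rga*, which encodes the NOT2 subunit, with 931, 1021, 853 and 947 normalized counts in controls and 1472, 1323 and 1212 in HP1-KD. All HP1-KD libraries lay above all controls (log2 fold change 0.51, SE 0.11, adjusted p = 0.0341, edgeR), though the call was lost when any one of control replicates 2 and 4 and HP1-KD replicates 1 to 3 was left out (adjusted p 0.0551 to 0.139), and without a filter on low counts (0.0694). An antisense gene, *asRNA:ASTR*, shares 998 nt with the exons of *Rga* and had at most 2.5 counts.

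Of the 11 repressor partner and decapping genes tested, 1 rose and 0 fell, and their median was 0.17. The gene was *bel*, which encodes the DEAD-box helicase Belle, with 1000.2, 889.8, 692 and 744 normalized counts in controls and 1623, 1249 and 1514 in HP1-KD. The groups did not overlap (log2 fold change 0.81, SE 0.16, adjusted p = 0.0236, edgeR). The call of *bel* was lost without control replicate 2 or 4 or HP1-KD replicate 1 or 3 (adjusted p 0.0527 to 0.115).

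Of the 8 genes around the PNG kinase and cytoplasmic polyadenylation, 1 fell. It was *fzy*, which encodes Fizzy, the Cdc20-type activator of the anaphase-promoting complex and as such a cell cycle factor. It had 3218, 3207, 3729.6 and 3346 normalized counts in controls and 2044, 2472 and 2229 in HP1-KD, with no overlap (log2 fold change −0.59, SE 0.11, adjusted p = 0.0192, edgeR). Its adjusted p was 0.0659 without control replicate 4, 0.0827 without HP1-KD replicate 1 and 0.0835 without HP1-KD replicate 3, and 0.0591 by total count alone. *plu*, which encodes the remaining subunit of the PNG kinase, had a log2 fold change of 0.79 (SE 0.23, adjusted p = 0.0763, edgeR) and did not pass, but its groups did not overlap either, as for *png*. It was added to the text after its value was seen.

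None of the 7 CTLH ligase genes passed, and 4 had a log2 fold change above 0. The lowest p-values belonged to *CG7611*, at 2200.0, 2527, 3130.0 and 2587 normalized counts in controls and 1648, 1993 and 1656 in HP1-KD (log2 fold change −0.56, SE 0.14, adjusted p = 0.0507, edgeR). *muskelin* followed with 1163, 1049.7, 468 and 809 in controls and 1997, 1361 and 2079 in HP1-KD (log2 fold change 1.05, SE 0.30, adjusted p = 0.069, edgeR). In each of these 2 genes the groups did not overlap, and the values lay in opposite directions. Both passed when control replicate 1 or control replicate 3 was left out (adjusted p 0.0292 and 0.0315 for *CG7611*, 0.0457 and 0.0227 for *muskelin*).

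The 9 mRNAs reported as targets of the factors, among them *Hsp83*, *nanos*, *osk*, *hb* and *stg*, summed to 60781, 47693, 25594 and 48419 normalized counts in controls and 51368, 51391 and 56504 in HP1-KD. The HP1-KD libraries lay inside the control range, in which replicate 3 was lowest and replicate 1 highest. Most of this sum came from the cyclin genes *CycB* (9716 to 28336 in controls, 24127 to 27468 in HP1-KD) and *CycA* (8658 to 13005 and 12296 to 12850). *CycA* is named here for its share, and the sum says little about the other targets. None of the 9 passed the test, 7 had a log2 fold change above 0, and the median was 0.13. Below 0 were *nanos* (−0.25) and *stg* (−0.35). The lowest p-values belonged to *CycB*, which encodes cyclin B, with a log2 fold change of 0.38 (SE 0.31, adjusted p = 0.44), and to *bcd*, which encodes Bicoid, with 0.51 (SE 0.47, adjusted p = 0.483, both edgeR). Without control replicate 3 these values were 0.15 and 0.20, and without control replicate 1 they were 0.61 and 0.94. *bcd* had 1876, 888, 329 and 1136 normalized counts in controls and 1501, 1443 and 1560.1 in HP1-KD, so that the control range enclosed the HP1-KD libraries.

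The genes most like *smg* across the 7 libraries, by Pearson's r of the log2 level, were *mus304* (r = 0.998), *mal* (0.997) and *Ge-1* (0.996). These r are descriptive values over libraries of 2 groups that differ in depth and composition, and no test was made. *Ge-1*, which encodes a scaffold of the mRNA decapping machinery, had 1886, 1576, 1122 and 1679 normalized counts in controls and 1959, 1847 and 1833 in HP1-KD. *mal*, which encodes molybdenum cofactor sulfurase, had 617, 359, 128 and 415 in controls and 649, 559.5 and 558 in HP1-KD. In *mus304*, *mal* and *Ge-1*, as in *smg*, control replicate 3 was lowest, and control replicate 1 lay among the HP1-KD libraries. This likeness follows from how the 3 genes were picked.

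The sign of the positive fold changes depends on the scaling. By total count alone, without correction for the share of ribosomal RNA, the median gene had a log2 fold change of −1.15 and all 10 genes were below 0, from −1.14 for *me31B* to −0.35 for *pum*. Relative to the median gene they were at 0.01 for *me31B*, 0.17 for *Not1*, 0.25 for *twin*, 0.32 for *gnu*, 0.34 for *brat*, 0.59 for *cup*, 0.60 for *png*, 0.62 for *smg*, 0.70 for *tral* and 0.81 for *pum*. *Rga* and *bel*, which passed as higher on the TMM scale, were likewise below 0 by total count (−0.62 and −0.37) and above the median gene by 0.53 and 0.79.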

How the data were processed

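Total RNA of stage 5 embryos was made into libraries with the TruSeq Stranded Total RNA kit. For the 7 libraries, the authors deposited a table of estimated counts by FlyBase identifier, not normalized, whose values are multiples of 0.5. The submitters' processing notes list STAR and dm6, and the counting program, annotation and strand setting were not given in the sources used here. The tissue label of HP1-KD samples names wild-type embryos, and the title and genotype were followed. Counts were rounded and fitted with edgeR 4.0.16 in R 4.3.3 (filterByExpr, TMM, glmQLFit and glmQLFTest, condition as the only term), with Benjamini-Hochberg adjusted p-values under 0.05 called. SE was the log2 fold change over the square root of F. The script was tested on simulated data. TMM-scaled CPM were multiplied by the mean effective library size to give normalized counts. Positions and exon lengths came from Ensembl release 115 on dm6, in which 17561 of 17699 identifiers were found. Ratios were compared by exact permutation in scipy 1.17.1.

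The 10 genes and the lists were chosen with earlier results of these data known. Named besides the 10 were genes of 5 pathway lists that passed, the 2 with the lowest p in lists without any, the 3 most like *smg* and genes with overlapping exons. The gene of eIF4E-T was not analysed here. Alternatives were other scalings (DESeq2 1.42.0 size factors, upper quartile, total count, ribosomal RNA genes removed), other filters (none, or at least 10 counts in every library), protein-coding genes only, a robust fit, the replicate number as a block, DESeq2's Wald test, limma-voom (limma 3.58.1), transcript length in place of exon length and each library left out.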

Additional observations from a re-analysis of the deposited data

How the results depend on the processing

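No gene of the 10 passed in the main comparison. With 1 library left out in turn, 0 to 1 of the 10 passed, and with control replicates 1 and 3 both left out (chosen after seeing the data) 3 passed. DESeq2's Wald test called 1, *tral* (adjusted p 0.017). The count of the 40 pathway genes past the threshold, 3 by edgeR, was 1 by total count (where 13.7% of all genes passed), 5 without ribosomal RNA genes (9.1%), 8 by DESeq2's Wald test (18.6%), 0 with the replicate block (1.24%), 10 without control replicates 1 and 3 (20.6%), and 0 to 8 with 1 library left out (181 to 1212 genes in all). The cause of these shifts was not tested. By total count the log2 fold changes were −0.53 (*smg*), −0.82 (*brat*), −0.35 (*pum*), −0.57 (*cup*), −0.46 (*tral*), −0.90 (*twin*), −0.98 (*Not1*), −0.55 (*png*), −0.83 (*gnu*), −0.62 (*Rga*), −0.37 (*bel*), −0.17 (*muskelin*), −0.70 (*CycB*) and −0.52 (*bcd*). The value of *me31B* was 0.027 with limma-voom, 0.032 with the replicate block, 0.10 without control replicate 1, 0.02 without HP1-KD replicate 2 and −0.18 to 0.10 with 1 library left out. Ratios whose groups did not overlap numbered 2 to 4 with 1 library left out, and 4 without control replicate 1. The order of levels kept 8 to 10 of 10 places. *Su(var)2-5* passed under every alternative run.

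Replicate numbers 1 to 3 are shared by the groups, but the sources used here do not say what they mark. For that reason the libraries were not taken as paired. Deviations of same-numbered libraries from their group mean correlated at r = 0.408, −0.126 and 0.0573, and those of differently numbered libraries at −0.406 to 0.313. These r cannot decide whether libraries were paired, since deviations within a group sum to 0. The replicate block, without control replicate 4, called 96 of 7751 genes and 0 of the 10. It gave 0.84 for *smg* (adjusted p 0.307) and 0.71 for *tral* (0.169), and *Rga*, *bel* and *fzy* did not pass (adjusted p 0.188, 0.133 and 0.144). Without control replicate 4 and with no block, these 3 did not pass either (adjusted p 0.103, 0.078 and 0.0659, edgeR). The part of the block itself in the loss of these calls can therefore not be told from this fit. *png* had only 20 to 45.5 counts per library.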
